A study of Mus musculus with 6 samples.

Results

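Mouse cells answer interferons with 2 families of large GTPases, the immunity-related GTPases (IRG) and the guanylate-binding proteins (GBP). Their levels were read in the palatal shelves of embryos at stage E14.5. The 10 genes described are the IRG genes Igtp, Irgm1, Irgm2 and Iigp1 and the GBP genes Gbp2, Gbp3, Gbp5, Gbp6, Gbp7 and Gbp9, out of 55631 genes in the table. They were picked by symbol, and the pick was made with their KO and control values in view, so those values are given as a description and support nothing by themselves.

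There were 2 groups of 3 libraries of total RNA. Control embryos, titled WT in the labels, had the genotype p130Casfl/fl, with loxP sites in both copies of the gene for the adhesion adaptor p130Cas. KO embryos were p130Casfl/fl; CAG-Cre, so they shared the loxP-flanked alleles and added a Cre driven by CAG, a promoter active in nearly all cells. No group with Cre alone was analysed here, so the presence of Cre and the loss of p130Cas cannot be told apart. Strain, litter, and whether shelves of several embryos were pooled are not given in the labels, so the spread between libraries may be technical in part.

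Expression is in FPKM, sequenced fragments divided by gene length and by library size, so that levels of different genes can be compared. FPKM summed to between 384979 and 424993 per library, with 21500 to 21869 genes above 0, and read depth is unknown. No library listed a value above 0 that was lower than 0.10 FPKM, so weaker expression appears as 0. Osr2, a palatal mesenchyme gene, was at 44.6 to 55.2 FPKM in the 6 libraries, and all 9 markers of that tissue were above the filter. Bcar1, which encodes p130Cas, was at 1.80, 1.97 and 2.09 FPKM in the control libraries and 1.69, 1.69 and 1.31 FPKM in the KO libraries. It was not called lower (limma, adjusted p = 1.00). Any parts of the gene outside the loxP sites would also add to this value. Which part they flank was not examined and single exons were not measured, so loss of the flanked part was not tested.

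Interferons signal through JAK kinases to STAT proteins. Interferon gamma leads to STAT pairs that bind the gamma-activated site (GAS), and type I interferons lead to a complex of STAT proteins with IRF9, which binds the interferon-stimulated response element (ISRE). IRG and GBP proteins then gather on the vacuoles that hold bacteria or protozoa and break them open. Irgm1, Irgm2 and Igtp (also called Irgm3) are regulators that sit on the cell's own membranes and keep effector IRG proteins such as Iigp1 (Irga6) inactive there. GBP proteins form coats on microbial membranes and are linked to inflammasomes, the complexes that activate caspases.

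The start of these genes holds the letters of those elements, and the bases before 4 of the gene starts are shown to make this visible. They come from RefSeq on GRCm38.p6, run 5′ to 3′ on the strand of the gene, and have ISRE matches (GAAANNGAAA) and GAS matches (TTCNNNGAA) on either strand in capitals. Igtp is from chr11:58199406-58199555 and Irgm2 from chr11:58214827-58214976, both on the plus strand, and the Irgm2 stretch lies in an intron of the longer annotated Irgm2 gene. Gbp3 is from chr3:142559894-142560043 and Gbp7 from chr3:142530186-142530335, both on the plus strand. Each run ends at the base before the RefSeq start, and the last 18 of the 150 bases shown for Gbp3 lie in an annotated Gbp3 exon, since GENCODE places its start further upstream.
Igtp: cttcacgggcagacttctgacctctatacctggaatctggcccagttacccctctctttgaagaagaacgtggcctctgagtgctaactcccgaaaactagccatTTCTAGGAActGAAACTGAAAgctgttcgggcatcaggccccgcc
Irgm2: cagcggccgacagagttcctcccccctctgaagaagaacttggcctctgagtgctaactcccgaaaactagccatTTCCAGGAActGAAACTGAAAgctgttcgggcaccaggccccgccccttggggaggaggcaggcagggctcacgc
Gbp3: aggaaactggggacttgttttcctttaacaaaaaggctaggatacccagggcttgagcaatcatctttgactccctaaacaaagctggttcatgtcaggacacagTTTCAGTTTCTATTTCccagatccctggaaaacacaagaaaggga
Gbp7: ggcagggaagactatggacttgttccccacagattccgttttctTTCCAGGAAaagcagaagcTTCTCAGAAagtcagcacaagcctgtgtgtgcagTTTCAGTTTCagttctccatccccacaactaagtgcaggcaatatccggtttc

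Igtp and Irgm2 share more than the single matches. In both, a GAS match is followed after 2 bases by an ISRE match, at -45 to -25 in Igtp and at -75 to -55 in Irgm2, counted from the base before the start as -1. The windows of these genes, set 30 bases apart, were identical at 184 of 270 bases (68.1%). The joined letters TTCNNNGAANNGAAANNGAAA, noticed in these windows and then searched on both strands, stood in 5 of 32851 RefSeq promoter windows (0.0152%). All 5 belonged to IRG genes, namely Igtp, Irgm2, Tgtp1, Tgtp2 and Gm12185. For Irgm1 and Gbp2, where annotated exons of the same gene cover more of the bases before the RefSeq start, only 30 bases around the match are shown, from chr11:48871428-48871457 on the minus strand and from chr3:142620594-142620623 on the plus strand.
Irgm1: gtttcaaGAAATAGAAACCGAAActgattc
Gbp2: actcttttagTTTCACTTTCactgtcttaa

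RefSeq windows, running from 250 bases before to 50 after the start, were matched for 7 of the 10 genes, and Iigp1, Gbp6 and Gbp9 were not matched. All 7 held an ISRE match, against 3.44% of the 32851 windows. The 7 genes had 8 windows, and a further window of Gbp3, at chr3:142560106-142560405, held neither motif. A gene was counted if any of its windows held a match, whereas the shares are per window. A GAS match stood in 4 of the 7 (Igtp, Irgm2, Gbp5 and Gbp7), against 8.30% of windows, and these 4 held both motifs, against 0.454% of windows. In Irgm1, at -30 to -15, and in Gbp3, at -45 to -30, 2 ISRE matches overlap each other. Of 10 other IRG and GBP genes with a window, 6 held an ISRE match and 4 a GAS match. These are matches of letters, and binding was not measured.

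**Figure D1:**
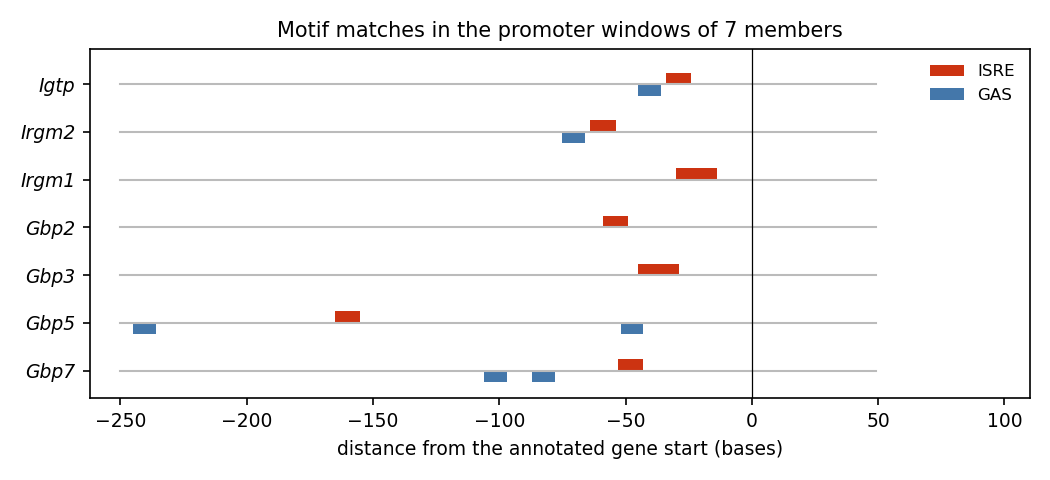
Positions of ISRE matches (red) and GAS matches (blue) from 250 bases before to 50 bases after the RefSeq start of 7 genes, with distance from the start in bases on the x axis. All 7 genes hold an ISRE match, and in Igtp and Irgm2 a GAS match lies directly before it.

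All 10 genes had a higher mean in KO than in control shelves, and for 9 of them every KO library was above every control library. Over all 25387 genes above 0 in at least 1 library, 905 (3.56%) had that order, and nothing is read from the count of the 9 because the genes were picked on this contrast. Summed over the 10 genes, expression was 6.28 to 6.72 FPKM in the controls and 20.9 to 31.7 FPKM in the KO libraries, 4.12 times higher. The ratio of KO to control means ran from 2.37 for Gbp9 to 11.6 for Gbp6, with a median of 3.84 over the 9 genes above 0 in control. The median log2 fold change of FPKM + 1 over the 10 genes was 1.05, beside -0.02 over all tested genes. In bulk tissue, more cells that express a gene and more RNA per cell cannot be told apart.

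Of the 10 genes, 6 passed the filter of a mean of at least 1 FPKM and were tested, 4 of them only through their KO values, since their control means were under 1 FPKM. In limma 3 of these (Igtp, Irgm1 and Irgm2) were higher at an adjusted p under 0.05 and Iigp1, Gbp7 and Gbp9 did not pass. The share of all 14714 tested genes called higher was 0.326%. With a filter at 0.1 FPKM, 9 of the 10 were tested and 5 were higher, Gbp3 and Gbp6 being added, where 0.307% of 21197 genes were called higher. With no filter the same 5 were higher, where 0.264% of 25387 genes were.

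**Figure D2:**
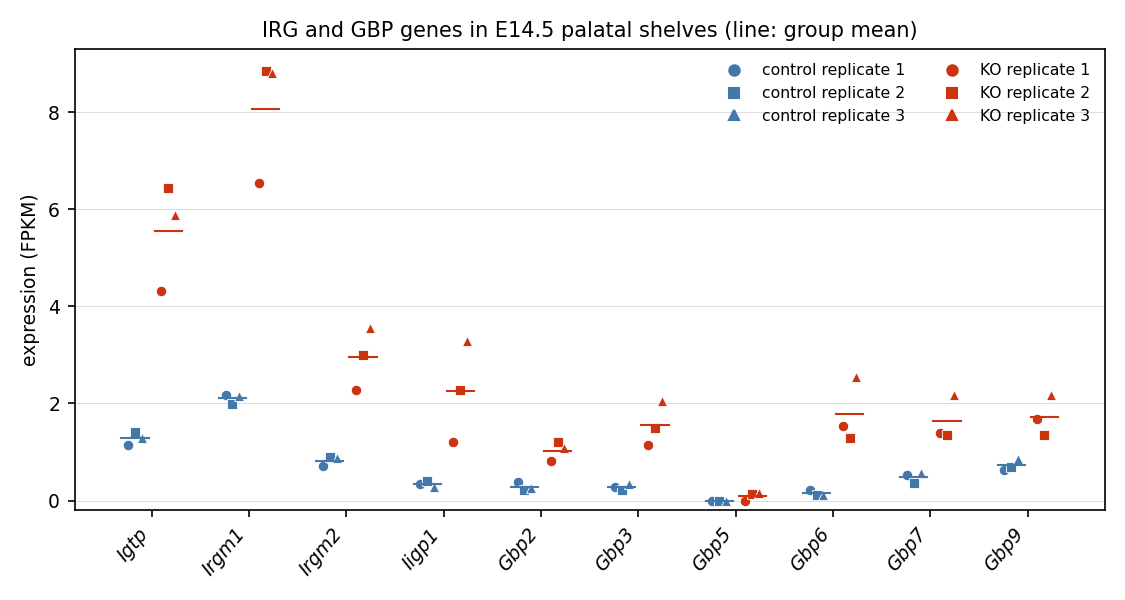
Expression in FPKM (y axis) of the 10 IRG and GBP genes in each of the 3 control libraries (blue) and 3 KO libraries (red), with lines at the group means. KO points lie above all control points of the same gene except for Gbp5, which is at 0 in KO replicate 1.

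The regulatory IRG genes had the highest levels of the family members described. Irgm1 (ENSMUSG00000046879, chr11:48861968-48871683, minus strand of GRCm38) read 2.18, 1.98 and 2.15 FPKM in the controls and 6.55, 8.85 and 8.81 FPKM in the KO libraries, in the order of replicates 1 to 3 as throughout. The groups were far apart, with KO replicate 1 below the other 2 KO libraries. The means were 2.10 ± 0.107 and 8.07 ± 1.32 FPKM (SD, n = 3 each), 3.84 times higher, with a log2 fold change of 1.54 ± 0.13 (SE).

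Igtp (ENSMUSG00000078853, chr11:58199556-58207591, plus strand) was at 1.15, 1.40 and 1.28 FPKM in the controls and 4.32, 6.43 and 5.87 FPKM in the KO libraries. Again KO replicate 1 was the lowest KO library and still lay above every control library. The means were 1.28 ± 0.128 and 5.54 ± 1.09 FPKM (SD, n = 3 each), 4.34 times higher, with a log2 fold change of 1.51 ± 0.15 (SE).

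Irgm2 (ENSMUSG00000069874, chr11:58199618-58222782, plus strand) was at 0.716, 0.891 and 0.867 FPKM in the controls and 2.29, 3.01 and 3.56 FPKM in the KO libraries. The groups did not overlap, and the ratio of means was 3.58, with a log2 fold change of 1.10 ± 0.14 (SE). It overlaps Igtp on the same strand, and 11.8% of the 50-base words of Igtp transcripts also occur in Irgm2 transcripts, so some reads could be counted for either gene. Its call in limma (adjusted p = 0.0183) depended on the libraries used. Each fit that left out a control library lost it, with an adjusted p of 0.0944, 0.101 and 0.116 for control replicates 1 to 3. Dropping KO replicate 2 gave 0.0656 and dropping KO replicate 3 gave 0.0599, while dropping KO replicate 1 gave 0.0136. The calls of Igtp and Irgm1 were lost in none of the 6 fits that left out a library.

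Iigp1, the effector IRG that loads onto vacuoles, was lower than the regulators in control and varied more among KO libraries, relative to its mean, than they did. It (ENSMUSG00000054072, chr18:60376027-60392634, plus strand) was at 0.343, 0.398 and 0.270 FPKM in the controls and 1.20, 2.27 and 3.28 FPKM in the KO libraries. All KO values lay above all control values, and KO replicate 3 was well above KO replicate 1. The means were 0.337 ± 0.0644 and 2.25 ± 1.04 FPKM (SD, n = 3 each), 6.68 times higher, with a log2 fold change of 1.23 ± 0.28 (SE). It did not pass in limma (adjusted p = 0.144) and passed without KO replicate 1 (adjusted p = 0.0151), with a range from 0.0151 to 0.617 over the fits that left out a library.

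The GBP genes had lower means than the regulatory IRG genes in both groups and were split between 2 gene clusters. On chromosome 3 lie Gbp5, Gbp7, Gbp3 and Gbp2, and on chromosome 5 Gbp9 and Gbp6. Summed, the 6 GBP genes were at 1.61 to 2.15 FPKM in the controls and 6.56 to 10.1 FPKM in the KO libraries, 4.06 times higher. The 4 IRG genes summed to 4.39 to 4.68 and 14.4 to 21.5 FPKM, 4.14 times higher. The sum of IRG genes was 2.35 times that of GBP genes in control and 2.40 times in KO means, so the balance between the families was nearly the same in both groups.

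Gbp2, which carries a lipid anchor for membranes (ENSMUSG00000028270, chr3:142620602-142638008, plus strand), was at 0.374, 0.217 and 0.256 FPKM in the controls and 0.813, 1.20 and 1.08 FPKM in the KO libraries, 3.65 times higher, with a log2 fold change of 0.66 ± 0.10 (SE). Gbp3 (ENSMUSG00000028268, chr3:142560026-142573209, plus strand) was at 0.273, 0.208 and 0.347 FPKM in the controls and 1.14, 1.49 and 2.04 FPKM in the KO libraries, 5.63 times higher, with a log2 fold change of 0.99 ± 0.15 (SE). For both, the lowest KO library was above the highest control library, and KO replicate 1 was the lowest. Gbp7 (ENSMUSG00000040253, chr3:142530342-142550149, plus strand) was at 0.532, 0.360 and 0.576 FPKM in the controls and 1.39, 1.36 and 2.17 FPKM in the KO libraries, 3.35 times higher, with a log2 fold change of 0.81 ± 0.15 (SE). It stood highest in KO replicate 3, and the groups did not overlap.

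Gbp5, known for its link to the NLRP3 inflammasome (ENSMUSG00000105504, chr3:142493978-142522344, plus strand), had 0 in each control library and in KO replicate 1. It stood at 0.140 and 0.145 FPKM for KO replicates 2 and 3, near the lowest value that the table holds. Alone among the 10 genes its groups touched, at 0.

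Gbp9 (ENSMUSG00000029298, chr5:105077630-105139539, minus strand) was at 0.626, 0.700 and 0.862 FPKM in the controls and 1.68, 1.35 and 2.16 FPKM in the KO libraries. It had the smallest ratio, 2.37, and a log2 fold change of 0.65 ± 0.14 (SE), and its groups did not overlap. Gbp6 (ENSMUSG00000104713, chr5:105270702-105293698, minus strand) was at 0.225, 0.124 and 0.113 FPKM in the controls and 1.54, 1.29 and 2.54 FPKM in the KO libraries, with a log2 fold change of 1.25 ± 0.19 (SE). Its ratio of 11.6 was the highest of the 9, on a control mean of 0.154 ± 0.0618 FPKM (SD, n = 3) that is close to the lowest listed values. Of the 50-base words of Gbp6 transcripts, 70.7% also occur in other genes, 65.0% in Gm43302, so the split of reads is uncertain. The sum of Gbp6, Gbp10 and Gm43302 was 0.344, 0.124 and 0.222 FPKM in the controls and 2.49, 2.34 and 3.26 FPKM in the KO libraries, 11.7 times higher.

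Irgm1, Igtp and Irgm2 did not overlap one another in either group, while most GBP genes overlapped the next gene in rank. In control libraries Irgm1 stood above Igtp and Igtp above Irgm2 with no overlap, while Irgm2 and Gbp9 overlapped. Gbp9 stood above Gbp7, and from there Gbp7, Iigp1, Gbp2, Gbp3 and Gbp6 followed, each overlapping the next. In KO libraries Irgm1 again stood above Igtp and Igtp above Irgm2, while Irgm2 and Iigp1 overlapped. The next genes were Iigp1, Gbp6, Gbp9, Gbp7, Gbp3 and Gbp2, each overlapping its neighbour, so that Iigp1 and Gbp6 ranked higher than in control. Gbp5 was last in both groups.

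The KO libraries differed among themselves in a way that most of the 10 genes shared. KO replicate 1 was lowest of the 3 in 7 of 10 genes, among them all 4 IRG genes, and KO replicate 3 was highest in 7 of 10. KO replicate 2 was lowest for Gbp6, Gbp7 and Gbp9 and highest for Igtp, Irgm1 and Gbp2. The mean of the log2(FPKM + 1) values over the 10 genes exceeded the control mean by 0.78, 0.98 and 1.20 for KO replicates 1 to 3, while control libraries were within -0.02 and 0.02. For IRG genes these distances were 1.02, 1.45 and 1.56, and for GBP genes 0.62, 0.67 and 0.96.

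Other IRG and GBP genes were then read from a list of 18. Of these 15 had a value above 0 in some library, and Gm12185, Irgc1 and Gbp2b were listed at 0 in all 6. All KO libraries were above all control libraries for 11 of the 15 genes above 0, beside 3.56% of all genes with a value above 0. The list was made with earlier results of these data known and some of the 11 share sequence, so nothing is read from it. Only Irgq passed the filter of 1 FPKM. Irgq, an IRG relative that lacks the usual GTP-binding motifs, was at 13.4, 13.6 and 13.7 FPKM in the controls and 13.2, 13.2 and 11.7 FPKM in the KO libraries (log2 fold change -0.09; limma, adjusted p = 1.00). It was the most abundant gene of the family and did not share the higher KO level.

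Without Irgq the listed genes summed to 0.883 to 1.01 FPKM in the controls and 5.38 to 7.78 FPKM in the KO libraries, 7.31 times higher. Tgtp1 and Tgtp2 (Irgb6), effector IRG genes, were listed at 0 in all control libraries. Tgtp1 was at 0.532, 0.893 and 0.859 FPKM and Tgtp2 at 0.687, 1.11 and 1.57 FPKM for KO replicates 1 to 3. With the filter at 0.1 FPKM, 13 of the 18 were tested, these 2 were called higher (limma, adjusted p = 0.0214 and 0.0338) and 11 did not pass, beside 0.307% of all genes called higher with that filter. Both reached the filter only through their KO values, so a difference was built into their being tested and the count supports nothing. Of the 50-base words of Tgtp1 transcripts 79.4% also occur in Tgtp2, so their shares are uncertain, and their sum was 1.22, 2.00 and 2.42 FPKM in the KO libraries.

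Ifi47 (Irgd), another effector, was at 0.284, 0.418 and 0.343 FPKM in the controls and 1.08, 1.98 and 1.84 FPKM in the KO libraries, 4.69 times higher, and did not pass with that filter (limma, adjusted p = 0.0607). Gm12250 (Irgb10), which acts on bacterial membranes, was at 0.254, 0.255 and 0.282 FPKM in the controls and 0.359, 0.624 and 0.365 FPKM in the KO libraries. Its groups did not overlap, although its ratio of 1.70 was below that of every member with a ratio. Gm5431, Gm4951 and Gbp10 were listed at 0 in all control libraries and stood between 0.215 and 0.715 FPKM in every KO library. F830016B08Rik, 9930111J21Rik1, 9930111J21Rik2 and Gbp4 had KO values between 0.164 and 0.371 FPKM, all above their control values. Of the 50-base words of 9930111J21Rik1 transcripts 80.4% also occur in 9930111J21Rik2, and of those of Gbp10 73.3% occur in Gbp6. The split of reads between such genes is uncertain, so these rises are not independent of each other.

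Gbp8 was at 0 in every control and in KO replicate 2 and stood at 0.152 and 0.155 FPKM for KO replicates 1 and 3. Gbp11 was above 0 only in KO replicate 3, at 0.153 FPKM. Gm43302 was at 0.580 and 0.655 FPKM for KO replicates 1 and 2 and listed at 0 in KO replicate 3, where Gbp6 was highest, and every 50-base word of its transcripts occurs in another gene.

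**Figure D3:**
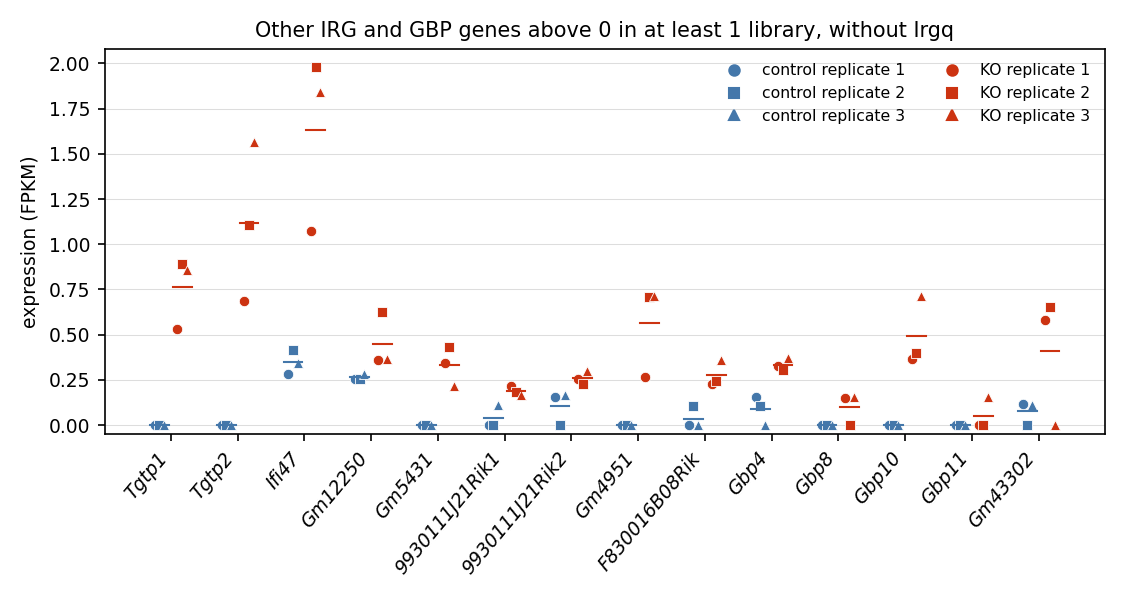
Expression in FPKM (y axis) of 14 other IRG and GBP genes in the 3 control libraries (blue) and 3 KO libraries (red), with lines at the group means. Tgtp1, Tgtp2, Gm5431, Gm4951 and Gbp10 are at 0 in all control libraries and above 0 in all KO libraries.

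Related GTPases outside the families were also read. Mx2, an interferon-induced GTPase of the dynamin superfamily, was at 0.343, 0.488 and 0.272 FPKM in the controls and 1.27, 2.59 and 2.50 FPKM in the KO libraries, 5.77 times higher. It did not pass in limma (adjusted p = 0.0844), passed after rescaling to TPM (adjusted p = 0.0383) and passed without KO replicate 1 (adjusted p = 0.0104). Mx2 had a control mean of 0.368 FPKM and reached the filter of 1 FPKM only through its KO values. A difference was thus built into its being tested. Mx1 was at 0.193, 0.144 and 0 FPKM in the controls and 0.533, 1.11 and 0.866 FPKM in the KO libraries. The very large GTPases Gvin1 and Gm4070, whose transcripts are nearly identical, summed to 0.352, 0 and 0.291 FPKM in the controls and 1.75, 1.11 and 1.95 FPKM in the KO libraries. Atlastins, GTPases that fuse membranes of the endoplasmic reticulum and resemble GBP proteins in structure, were set beside them. Of Atl1, Atl2 and Atl3, all tested, 0 passed in limma, beside 0.333% of all tested genes in either direction, so nothing is read from this 0. None of these atlastins had an unadjusted p under 0.05, and their log2 fold changes were -0.15, -0.02 and -0.00.

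All family genes but Irgc1 and Irgq lie in 5 blocks, which gives a view of the DNA around them. Blocks on chromosomes 3 and 5 hold 5 and 7 GBP genes over 144 and 332 kb. Blocks on chromosome 11 hold 8 IRG genes from Irgm1 to Ifi47 over 235 kb and 3 from Gm12250 to Irgm2 over 35.0 kb, and a block on chromosome 18 holds 3 IRG genes over 181 kb. Within 500 kb of these blocks 38 other genes were tested, and 0 were called in limma, beside 0.333% of all tested genes in either direction. None of the 38 had an unadjusted p under 0.05, but the share of all tested genes with such a p was not counted. The median log2 fold change of the 38 was 0.00. They ran from -0.36 for Cd74, the invariant chain of class II molecules, to 0.19 for D930016D06Rik.

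The ligands and receptors upstream of the family were looked at next. Of 21 interferon genes 20 were listed at 0 in all libraries, Ifng and Ifnb1 among them, and Ifnz stood at 0.172 and 0.137 FPKM in control replicates 1 and 2. Levels under about 0.1 FPKM do not appear in the table, so low ligand RNA was not detectable. The interferon gamma receptor genes, named for their place in the pathway, differed little between the groups. Ifngr1 was at 13.0 ± 0.267 FPKM in the controls and 13.2 ± 0.996 FPKM in the KO libraries, and Ifngr2 at 11.4 ± 0.529 and 11.1 ± 0.308 FPKM (SD, n = 3 each). Their log2 fold changes were 0.02 ± 0.06 and -0.04 ± 0.04 (SE; limma, adjusted p = 1.00 for each).

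Of 18 receptors, kinases and transcription factors of the pathway, 15 were tested. In limma 2 were called higher, beside 0.326% of all tested genes, and 13 did not pass. The median log2 fold change of the 15 was 0.06. Irf9, the DNA-binding partner of STAT proteins in the type I response, was at 8.94, 7.07 and 7.58 FPKM in the controls and 14.1, 16.8 and 17.4 FPKM in the KO libraries (log2 fold change 0.95 ± 0.13, SE; limma, adjusted p = 0.0124). Like the sum of the 10 genes, it was lowest of the KO libraries in KO replicate 1 and highest in KO replicate 3. It no longer passed when control replicate 2, control replicate 3 or KO replicate 3 was left out, with an adjusted p of 0.0707, 0.104 and 0.0599.

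Some other factors that bind these elements did not pass. Stat2 was at 6.21 ± 0.257 FPKM in the controls and 8.38 ± 1.40 FPKM in the KO libraries (SD, n = 3 each; limma, adjusted p = 0.970). Irf1, an early target and activator in the gamma response, was at 4.27 ± 0.434 and 5.38 ± 0.498 FPKM, and Irf8 at 1.53 ± 0.0988 and 2.01 ± 0.494 FPKM, and neither passed (limma, adjusted p = 1.00 for each).

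A list of 10 genes known mainly as targets of interferon gamma was mostly under the filter. Of these, 2 were tested and 0 passed in limma, beside 0.333% of all tested genes in either direction, so nothing is read from the 0. Neither of the 2 had an unadjusted p under 0.05. Cd74 was at 3.19 ± 0.430 FPKM in the controls and 2.38 ± 1.07 FPKM in the KO libraries, and H2-Ab1, a class II chain, at 1.51 ± 0.0830 and 1.08 ± 0.288 FPKM (SD, n = 3 each; limma, adjusted p = 1.00 for each). Cxcl9 was listed at 0 except in KO replicate 3, at 0.135 FPKM. Cxcl10, a chemokine that type I interferons also induce, was at 0.202, 0.253 and 0.108 FPKM in the controls and 0.265, 1.24 and 0.633 FPKM in the KO libraries.

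Genes whose products work with IRG and GBP proteins were counted too. Of 14 genes that bring these GTPases to vacuoles, through the conjugation of LC3-like proteins and ubiquitin, 0 passed in limma. Of all tested genes 0.333% were called in either direction, so nothing is read from a 0 in so short a list. The median log2 fold change of the 14 was -0.03. The only 1 with an unadjusted p under 0.05 was Trim21, a ubiquitin ligase, at 1.63 ± 0.166 FPKM in the controls and 2.82 ± 0.522 FPKM in the KO libraries (SD, n = 3 each; limma, adjusted p = 0.446). Map1lc3a and Atg12 were among the next, each with an adjusted p of 1.00. Of 7 genes for the lipid anchoring of proteins, such as Fnta and Rce1, 0 passed in limma, and nothing is read from this 0 either. None of the 7 had an unadjusted p under 0.05, and their median was -0.03.

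Of 9 inflammasome genes 4 were tested and 0 passed in limma, beside 0.333% of all tested genes in either direction. Among the 4, only Gsdmd had an unadjusted p under 0.05. Gsdmd, the pore protein of pyroptosis, was at 5.05, 5.25 and 5.13 FPKM in the controls and 6.61, 6.31 and 6.81 FPKM in the KO libraries (limma, adjusted p = 0.467). Its groups did not overlap, as for 481 (3.27%) of all tested genes in that direction. Casp1 and Casp4, the caspases that cut it, were under the filter, at 0.451 ± 0.0792 and 0.419 ± 0.176 FPKM and at 0.207 ± 0.0427 and 0.217 ± 0.120 FPKM in the controls and KO libraries (SD, n = 3 each).

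Markers of other cells that can express these GTPases were read beside them. Of 18 macrophage markers 16 were tested and 0 passed in limma, beside 0.333% of all tested genes in either direction. An unadjusted p under 0.05 was found for 13. The share of all tested genes with such a p was not counted, so nothing is read from the 13. The 16 had a median log2 fold change of 0.46, all above 0, and the smallest adjusted p was 0.152, for Lyz2. The list summed to 95.1 to 117 FPKM in the controls and 135 to 186 FPKM in the KO libraries, 1.51 times higher, and none of the markers was at 0. For 15 of the 18 every KO library was above every control library, beside 3.56% of all genes with a value above 0. Adgre1, the macrophage antigen F4/80, was at 1.83, 1.38 and 2.09 FPKM in the controls and 3.62, 3.74 and 2.98 FPKM in the KO libraries.

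The order of the KO libraries was not the same for these markers as for the family. KO replicate 2 was highest for 16 of 18 markers and KO replicate 3 lowest for 13, whereas KO replicate 3 was highest for 7 of the 10 IRG and GBP genes. The markers exceeded the control mean by 0.46, 0.67 and 0.32 on the log2 scale for KO replicates 1 to 3. The part of macrophages in the family's levels was not tested.

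Lymphoid and NK cell markers were near the floor, with 9 of 14 at 0 in all libraries, among them Cd3e, Cd8a, Ncr1 and Prf1. Their sum was 0.285 to 0.832 FPKM in the controls and 0.371 to 0.758 FPKM in the KO libraries. Of 10 endothelial markers 0 passed in limma, beside 0.333% of all tested genes in either direction. An unadjusted p under 0.05 was found for 4, again with no share of all tested genes counted beside it. Their sum was 160 to 182 FPKM in the controls and 128 to 155 FPKM in the KO libraries, with a median log2 fold change of -0.18. Epithelial markers summed to 326 to 413 and 286 to 510 FPKM, and 0 of 8 passed in limma or had an unadjusted p under 0.05.

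**Figure D4:**
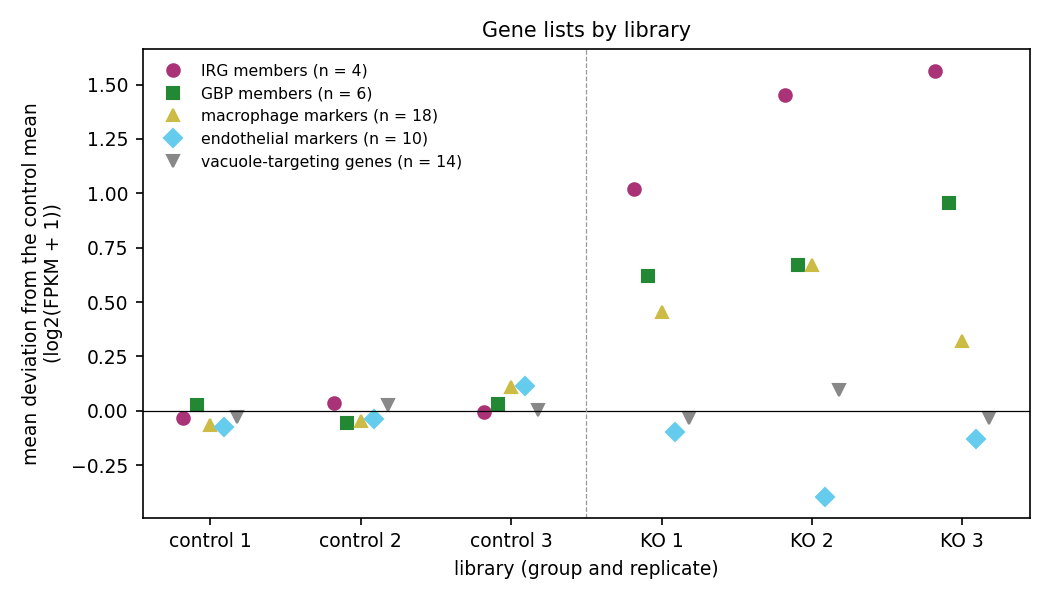
Mean distance from the control mean on the log2(FPKM + 1) scale (y axis) in each library (x axis) for the IRG genes, GBP genes, macrophage markers, endothelial markers and genes of vacuole targeting. IRG genes reach 1.56 in KO replicate 3, where macrophage markers have their lowest KO value, 0.32.

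The genes outside the families whose profile was most like that of the 10 were found among all tested genes. Likeness was the root-mean-square difference over the 6 libraries between a gene's distance from its control mean and the mean distance of the 10 genes, in log2(FPKM + 1). The 5 nearest named genes were Ifi35 (0.089), Trim30a (0.090), Irf9 (0.10), Ddx58 (0.11) and Lgals9 (0.11). Ifi35, an interferon-induced leucine zipper protein, was at 3.55, 2.89 and 3.25 FPKM in the controls and 6.18, 7.19 and 7.67 FPKM in the KO libraries. Like the family mean, it was lowest in KO replicate 1 and highest in KO replicate 3. The genes were picked by likeness over these 6 libraries, so a shared order is partly built in. Trim30a, of the tripartite motif family, was at 0.554, 0.395 and 0.420 FPKM in the controls and 1.54, 1.88 and 1.93 FPKM in the KO libraries. Ddx58, which encodes the RNA sensor RIG-I, had 2.99 to 3.26 FPKM in the controls and 7.37, 7.07 and 7.95 FPKM in the KO libraries, lowest in KO replicate 2. Lgals9, a lectin, had 9.59 to 10.3 FPKM in the controls and 20.1, 21.6 and 21.2 FPKM in the KO libraries, highest in KO replicate 2.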

How the data were processed

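RNA of palatal shelves from 6 mouse samples, 3 per group, was sequenced. The authors deposited FPKM for 55631 Ensembl gene IDs in a single table, whose name gives the unit. Genome build mm10 and DESeq2 1.5.2 appear in the submitters' processing notes. The choice of aligner, counter, annotation release and strandedness is not given in the sources used here. No steps of 1 read were found in the values, so the depth of the samples stays unknown and counting intervals were not computed. Libraries were grouped by their labels, and columns were matched by library name. No 2 libraries held identical values.

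GENCODE for GRCm38 supplied symbols and coordinates (50876 IDs matched, 4755 did not). limma 3.58.1 in R 4.3.3 was run on log2(FPKM + 1) for the 14714 genes whose mean reached 1 FPKM, with genotype as the only term, eBayes with trend, two-sided tests and Benjamini-Hochberg adjustment at 0.05. This scale understates the change of low genes. Standard errors of fold changes are from the spread within groups of that gene alone. The share of all tested genes with an unadjusted p under 0.05 was not counted, so nothing is read from counts of such genes. The fit was also run on values simulated with normal noise, which do not copy the floor of the deposited values, and nothing here rests on that run.

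The members and gene lists were chosen with earlier results of these data known. Named were the 10 members, other IRG and GBP genes above 0, the called genes of each further list or otherwise up to 4 with the smallest p, and the 5 genes most like the members, without predicted genes and pseudogenes. Others were named for their role after their values were seen. Some single members of the lists are not reported here. Shared sequence was counted as 50-base words of GENCODE transcripts. The alternatives tried were other pseudocounts, filters, scalings and variance moderation, a replicate block and leaving out each library.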

Additional observations from a re-analysis of the deposited data

How the results depend on the processing

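For the 10 IRG and GBP genes, all 141 log2 fold changes computed under the alternatives were above 0. These were pseudocounts of 0.1 and 0.01, 2 looser filters, quantile, median-of-ratios and TPM scaling, robust variance moderation, the replicate number as a block, and each library left out in turn. In limma 3 of the 10 were called, and 5 were called with no filter and with a filter at 0.1 FPKM, where more of them were tested. Leaving out 1 library gave 2 to 4. Over all genes 49 were called, 48 higher and 1 lower. There were 2 lower genes with no filter and 2 with the filter at 0.1 FPKM. Leaving out 1 library gave 33 to 50 called genes, 32 to 48 higher and 1 to 2 lower. The median log2 fold change of the 10 genes was 1.05, and 1.04 after quantile normalization, 1.05 after median-of-ratios scaling and 1.49 after rescaling to TPM, where the pseudocount is smaller relative to the values. With the replicate number as a block 42 genes were called, 3 of them among the 10, and the call of Irf9 was lost (adjusted p = 0.0713). The numbers may not pair the samples, since the deviations of same-numbered libraries correlated at 0.019, 0.31 and -0.24, and control replicates 1 and 3 correlated best with KO replicates 3 and 1. With FPKM near 0.1, the lowest values in the table, levels of Gbp5, Gbp8 and Gbp11 are at the limit of what it resolves.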
